A study of Homo sapiens with 4 samples.

Results

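The regions described here are promoters at which TAF3 and RNA polymerase II (RNAPII) peak at nearly the same base. They were chosen from the deposited peak lists in 3 steps. A TAF3 peak had to overlap an RNAPII peak and exactly 1 H3K4me3 peak of 1500 to under 4000 bp, that H3K4me3 peak could overlap no other TAF3 peak, and the TAF3 summit had to lie 25 bp or less from the nearest RNAPII summit. Of 11765 TAF3 peaks, 9666 met the first 2 steps and are called matched promoters, and 3572 of these met the third and are called coincident-summit promoters. The remaining 6094 matched promoters, with summits over 25 bp apart, serve for comparison, and 2513 of them had summits 150 bp or more apart. They are called promoters because they carry these 3 signals. No transcription start site on the build of the files was at hand to check the word, and no gene is named.

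TFIID is the general transcription factor that recognises core promoters and starts the assembly of the preinitiation complex, into which RNAPII is recruited. TAF3 is a TFIID subunit whose PHD finger binds histone H3 trimethylated at lysine 4, a mark laid down on the nucleosomes that flank active start sites. The start site itself usually lies in a stretch poor in nucleosomes, and in human cells RNAPII often pauses shortly downstream of it. The summit of a peak is the base where the tags of one antibody pile up highest.

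All samples came from HCT116, an established human colorectal carcinoma line, grown as a monolayer without any treatment and fixed in 1% formaldehyde for 10 min. There was 1 library each for TAF3, RNAPII, H3K4me3 and input DNA. The TAF3 serum was raised against a fragment of the human protein, and the H3K4me3 and RNAPII antibodies were commercial. After duplicate removal the libraries held 12560129 to 19185386 tags. With 1 library per antibody there is no biological replicate and no test. The 95% intervals below are Wilson intervals for shares and Newcombe intervals for differences of shares, and they cover the counting of promoters only.

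Within the limit of 25 bp that chose them, coincident-summit promoters had a median distance of 11 bp between TAF3 and RNAPII summits, which describes the set and supports nothing. Of them 120 had both summits on the same base and 1740 (48.7%) had them 10 bp or less apart. The RNAPII summit lay at the higher coordinate in 1673 of the 3452 promoters whose offset was not 0 (48.5%, 95% interval 46.8 to 50.1%). The coincident-summit promoters made up 37.0% of the matched promoters, and since this distance is what chose them, nothing is read from it. At the limit itself, the 97 promoters at 25 bp had a median of 39.2-fold TAF3 and 109-fold RNAPII enrichment, and the 97 promoters just outside it, at 26 bp, had 40.4-fold and 120-fold.

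**Figure D1:**
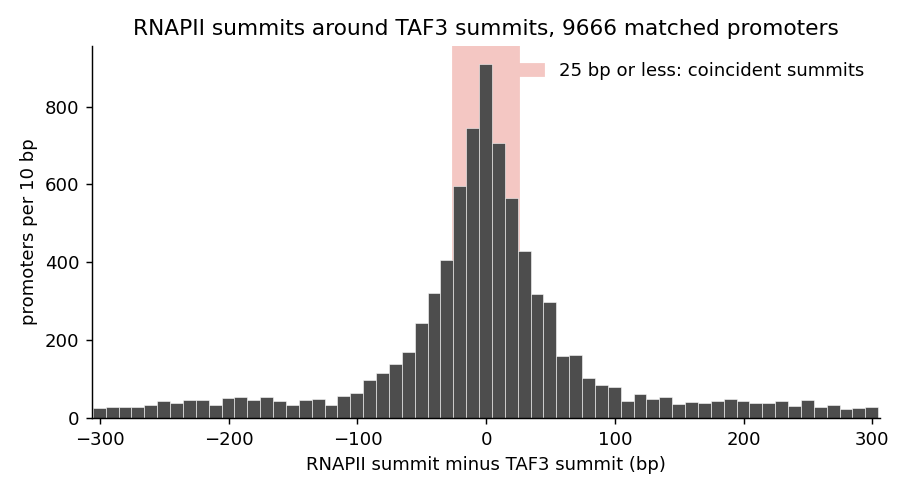
Offset of the nearest RNAPII summit from the TAF3 summit (x axis, bp, positive toward higher coordinates) in all 9666 matched promoters, as the number of promoters per 10 bp (y axis); the shaded band holds the 3572 coincident-summit promoters. The counts are highest at the centre, with 910 promoters in the 10 bp bin around 0, and promoters further out are not drawn.

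The strongest TAF3 peak of all belonged to this set. At chr10:70090897-70093181 (hg19) the TAF3 summit at 70091856 had 224-fold enrichment over input and 1067 tags, and the RNAPII summit 9 bp away had 243-fold enrichment and 1056 tags. Its H3K4me3 summit stood 164 bp off, with 175-fold enrichment. TAF3 enrichment thus exceeded H3K4me3 enrichment, as in 31 of the 3572 coincident-summit promoters (0.868%) and 16 of the 6094 others (0.263%). At chr2:8821907-8824057 the same order held more strongly, with 178-fold for TAF3, 283-fold for RNAPII 3 bp away and 106-fold for H3K4me3 at 487 bp. Enrichments of different antibodies come from different libraries, so their order within a promoter only describes these libraries. Duplicate removal took 40.2% of the H3K4me3 tags, 14.2% of the TAF3 tags and 16.1% of the RNAPII tags, and its part in the order was not tested.

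Other strong members had H3K4me3 well above TAF3. At chr19:2268865-2271787 TAF3 reached 186-fold, RNAPII 272-fold at 18 bp and H3K4me3 298-fold at 280 bp. At chr3:41240206-41241982 TAF3 reached 177-fold, RNAPII 274-fold at 6 bp and H3K4me3 257-fold at 152 bp. The highest RNAPII enrichment of any peak in the RNAPII list, 313-fold, was at chr19:2474578-2477625, where the TAF3 summit lay 24 bp away with 164-fold enrichment. In these promoters the TAF3 and RNAPII summits coincided while the H3K4me3 summit stood apart.

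Promoters with both summits on exactly the same base included strong ones. The leading example was chr1:42799855-42801983, where TAF3 (152-fold) and RNAPII (246-fold) both had their summit at 42801110 and the H3K4me3 summit (265-fold) lay 799 bp away. At chr7:42970971-42973194 both summits were at 42972004, with 151-fold TAF3 and 228-fold RNAPII enrichment, and the H3K4me3 summit was 464 bp away. Weak TAF3 peaks could coincide as well. At chr3:50283584-50284691 TAF3 was enriched 9.18-fold with 93 tags, RNAPII was enriched 38.5-fold on the same base, 50284209, and H3K4me3 was enriched 21.5-fold at 557 bp. The lowest TAF3 enrichment in the set was 8.33-fold, at chr17:73030190-73031897.

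H3K4me3 summits were rare at the base shared by TAF3 and RNAPII. The position of the H3K4me3 summit was not used to choose the promoters, but the nearness of TAF3 to RNAPII was. Around the RNAPII summit, 1.12% of coincident-summit promoters and 1.30% of the others had an H3K4me3 summit within 50 bp. The contrast around the TAF3 summit given next therefore largely follows from the choice and is a description. An H3K4me3 summit lay within 50 bp of the TAF3 summit in 47 of 3572 coincident-summit promoters (1.32%, 95% interval 0.991 to 1.75%) and in 655 of 6094 other matched promoters (10.7%, 95% interval 9.995 to 11.6%), against 7.26% of all matched promoters. The difference was -9.43 percentage points (95% interval -10.3 to -8.57). The size of the shares depended on the lists and the limit. With the upper 50% of each list by enrichment the share was 0.386% in coincident-summit promoters and 8.94% in the others, and with a limit of 50 bp in place of 25 bp it was 2.30% and 13.3%. Within 25 bp it was 15 coincident-summit promoters (0.42%) and 284 others (4.66%), against 3.09% of all matched promoters. The 101 bp around a summit make up a median of 4.14% of the H3K4me3 peak in coincident-summit promoters. The window of 50 bp was chosen after the positions had been seen. The peak caller assumed fragments of 120 bp for TAF3 and RNAPII and of 162 bp for H3K4me3, and the part of this in the positions was not tested.

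Outside this gap the H3K4me3 summits of coincident-summit promoters fell into a near and a far band on each side. Counted in steps of 20 bp, they were most frequent 121 to 140 bp from the TAF3 summit (305 promoters, 8.54%), became sparse at 201 to 220 bp (110 promoters, 3.08%) and were frequent again at 261 to 280 bp (160 promoters, 4.48%). In the other matched promoters the most frequent step was 81 to 100 bp (411 promoters, 6.74%), and the counts then went down to 226 (3.71%) at 201 to 220 bp and 189 (3.10%) at 261 to 280 bp. Around the RNAPII summit a near rise and a dip after it were also seen in promoters with separated summits, but the rise was weaker. In the 2513 promoters with TAF3 and RNAPII summits 150 bp or more apart, the H3K4me3 summit lay 141 to 160 bp from the RNAPII summit in 90 (3.58%), 201 to 220 bp from it in 46 (1.83%) and 301 to 320 bp from it in 88 (3.50%). No separate far band stood out there, as the counts fell only slowly, to 72 (2.87%) at 481 to 500 bp. Within 150 bp of the RNAPII summit the shares were 27.4% in coincident-summit promoters and 12.7% in these 2513. Measured from the TAF3 summit, the near band of 101 to 160 bp held 22.2% of coincident-summit promoters and 14.5% of the others. The difference was 7.73 points (95% interval 6.12 to 9.36). From 241 to 340 bp the shares were 19.5% and 14.5%, a difference of 4.98 points (95% interval 3.42 to 6.56). Both bands were marked out after the positions had been seen. Each peak has 1 summit, so lower H3K4me3 maxima on the other side of a promoter are not counted. Beyond 500 bp the shares were 15.4% in coincident-summit promoters and 15.4% in the others, with a 95% interval of -1.51 to 1.47 points for the difference.

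**Figure D2:**
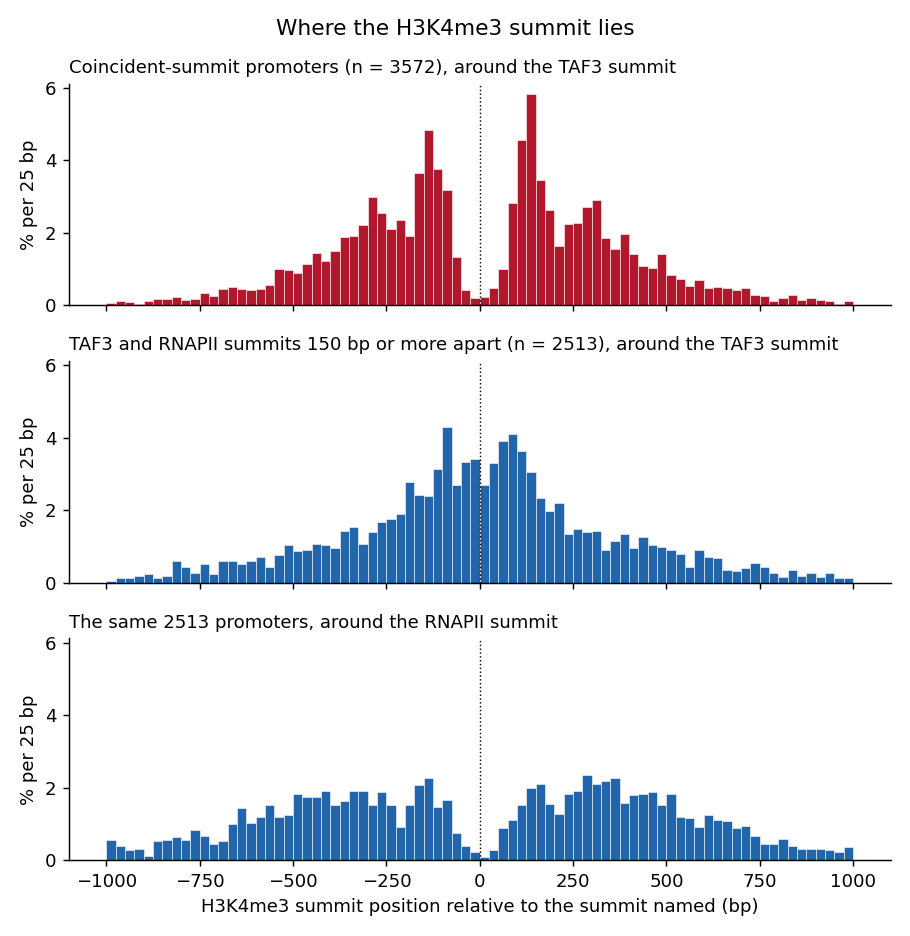
Position of the H3K4me3 summit (x axis, bp, positive toward higher coordinates) as a percent of promoters per 25 bp (y axis). Top, around the TAF3 summit in the 3572 coincident-summit promoters; middle, around the TAF3 summit in the 2513 promoters with TAF3 and RNAPII summits 150 bp or more apart; bottom, around the RNAPII summit in those same 2513. The centre is nearly empty in the top and bottom panels and filled in the middle panel.

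The gap in H3K4me3 summits went with the RNAPII summit. An H3K4me3 summit lay within 50 bp of the RNAPII summit in 40 coincident-summit promoters (1.12%) and in 79 of the others (1.30%), against 1.23% of all matched promoters, a difference of -0.18 points (95% interval -0.61 to 0.30). With the upper 50% of each list these shares were 0.331% in coincident-summit promoters and 0.363% in the others. In the 2513 promoters with summits 150 bp or more apart, where the positions can be told apart, the H3K4me3 summit lay within 50 bp of the TAF3 summit in 332 (13.2%, 95% interval 11.9 to 14.6%) and within 50 bp of the RNAPII summit in 26 (1.03%, 95% interval 0.707 to 1.51%). In coincident-summit promoters the distances to the TAF3 and RNAPII summits differ by at most 25 bp, so the gaps around them are the same gap.

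Ordered by the distance between TAF3 and RNAPII summits, the H3K4me3 summit lay within 50 bp of the TAF3 summit in 1.38% of promoters at 0 to 10 bp, 1.26% at 11 to 25 bp, 4.30% at 26 to 50 bp, 10.6% at 51 to 75 bp, 14.1% at 76 to 100 bp, 18.0% at 101 to 150 bp, 19.3% at 151 to 200 bp, 12.5% at 201 to 300 bp and 11.4% beyond 300 bp. For the RNAPII summit the share stayed between 0.658% and 3.01% in all 9 distance classes. At short distances the low share for TAF3 is largely fixed by geometry, since a TAF3 summit close to a gap around RNAPII must share it.

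**Figure D3:**
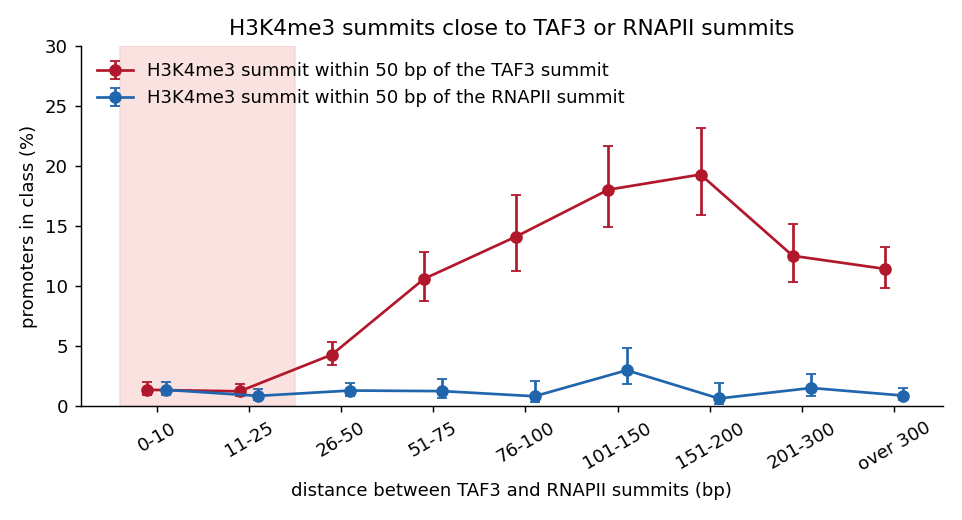
Percent of matched promoters (y axis) with the H3K4me3 summit within 50 bp of the TAF3 summit (red) or of the RNAPII summit (blue), by the distance between TAF3 and RNAPII summits (x axis, bp); bars are 95% Wilson intervals for counting error and the shaded classes are the coincident-summit promoters. The red points lie at 1.38% and 1.26% in the shaded classes, reach 19.3% at 151 to 200 bp and stand at 11.4% beyond 300 bp, while the blue points stay at or below 3.01%.

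The gap was present at weak and strong promoters, but it was emptier at strong ones. By quintile of TAF3 enrichment, from the lowest to the highest, an H3K4me3 summit lay within 50 bp of the TAF3 summit in 2.01%, 2.78%, 1.36%, 1.18% and 0.101% of coincident-summit promoters and in 13.8%, 12.0%, 9.98%, 9.67% and 6.98% of the others. By H3K4me3 enrichment the lowest quintile had 3.24% of coincident-summit promoters and 14.8% of the others, and the highest had 0.537% and 7.83%. The 47 exceptions had a median of 28.4-fold TAF3, 88.6-fold RNAPII and 106-fold H3K4me3 enrichment, below the medians of the whole set. At the closest, chr2:153031419-153033060, the H3K4me3 summit lay 1 bp from the TAF3 summit. At the other extreme, chr17:15163631-15167081, it lay 2084 bp away.

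Even at these small distances the RNAPII summit tended to lie on the side of the TAF3 summit that faced away from the H3K4me3 summit. This was so in 2014 of the 3452 coincident-summit promoters with an offset (58.3%, 95% interval 56.7 to 59.98%) and in 3975 of 6089 others (65.3%, 95% interval 64.1 to 66.5%), against 62.8% of all matched promoters. With summits 1 to 10 bp apart the share was 52.4% (95% interval 49.97 to 54.8%), an interval that includes 50%. It was 63.6% at 11 to 25 bp, reached 76.3% at 51 to 75 bp and was 51.2% beyond 300 bp. The H3K4me3 summit itself lay toward higher coordinates in 1822 of the 3572 coincident-summit promoters (95% interval 49.4 to 52.6%), so neither direction along the chromosome was favoured beyond counting error.

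Seen from the TAF3 summit, the H3K4me3 domain mostly reached further on the side of its own summit. This is partly fixed by the measure, since a summit near the middle of its own peak lies on the longer arm. Measured from the TAF3 summit, the longer arm of the H3K4me3 peak had a median of 1521 bp in coincident-summit promoters and 1506 bp in the others, and the shorter arm 901 bp and 962 bp. The H3K4me3 summit lay on the longer arm in 85.3% of coincident-summit promoters and 77.5% of the others, a difference of 7.75 points (95% interval 6.17 to 9.30). H3K4me3 summits also lay further from the TAF3 summit in coincident-summit promoters (median 257 bp) than in the others (211 bp). From the RNAPII summit the order was the other way, with medians of 260 bp and 305 bp. The nearness of TAF3 to RNAPII chose the promoters, so both contrasts are a description. How far the distance from the TAF3 summit raised the share on the longer arm was not tested. The arms of all peaks are measured from the same TAF3 summit, so agreement between their sides is also partly fixed by the measure. The longer arms of the H3K4me3 and TAF3 peaks pointed the same way in 81.2% of coincident-summit promoters and 75.8% of the others. The difference was 5.36 points (95% interval 3.67 to 7.02). For the longer arms of H3K4me3 and RNAPII the shares were 67.1% and 65.5%, and the interval of the difference, -0.36 to 3.53 points, includes 0.

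Coincident-summit promoters had higher TAF3 and RNAPII enrichment at the summit than the other matched promoters. The median TAF3 fold enrichment, the authors' ratio between the pile-up at its summit and the background expected there, was 42.2 (quartiles 28.7 and 60.7) in coincident-summit promoters and 34.9 (24.6 and 49.6) in the others. For RNAPII it was 120.5 (89.5 and 155.9) and 104.4 (76.8 and 136.4). The medians were 1.21 and 1.15 times higher. Of the coincident-summit promoters, 63.4% exceeded the others' median for TAF3 (95% interval 61.8 to 64.97%) and 63.0% for RNAPII (95% interval 61.4 to 64.6%). The distributions overlapped widely. Fold enrichment is taken at the summits that chose the promoters, so these values are a description.

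H3K4me3 enrichment hardly differed. Its median was 146-fold in coincident-summit promoters and 144-fold in the others, and 51.7% of coincident-summit promoters exceeded the others' median (95% interval 50.01 to 53.3%). Among promoters of like TAF3 enrichment the direction turned, and 43.1% of coincident-summit promoters exceeded the others' median H3K4me3 enrichment within the same quintile of TAF3 enrichment (95% interval 41.5 to 44.8%). H3K4me3 enrichment was a median of 3.37 times TAF3 enrichment in coincident-summit promoters and 3.94 times in the others. RNAPII enrichment was above H3K4me3 enrichment more often in coincident-summit promoters. H3K4me3 was the higher in 70.5% of coincident-summit promoters and 79.9% of the others, a difference of -9.47 points (95% interval -11.3 to -7.67). The limit given above on ranking different antibodies applies here too.

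**Figure D4:**
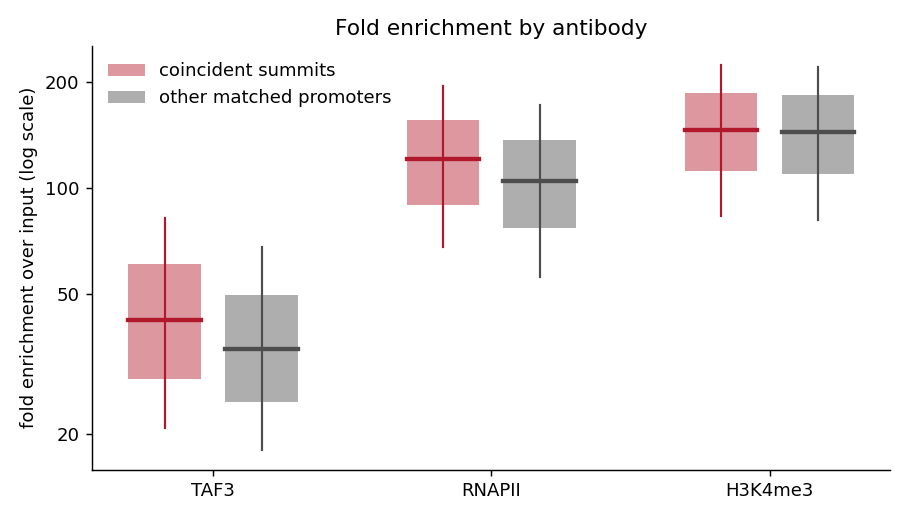
Deposited fold enrichment over input (y axis, log scale) of TAF3, RNAPII and H3K4me3 peaks in coincident-summit promoters (red) and other matched promoters (grey); lines mark medians, boxes quartiles and whiskers the 10th and 90th percentiles over promoters. The median lines stand at 42.2 and 34.9 for TAF3, 120.5 and 104.4 for RNAPII and 146 and 144 for H3K4me3.

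The higher enrichment did not come with many more tags. TAF3 peaks held a median of 201 tags in coincident-summit promoters and 191 in the others, RNAPII peaks 421 and 428, and H3K4me3 peaks 816 and 820. Peaks were slightly narrower, with medians of 1549 bp and 1586 bp for TAF3 and 1698 bp and 1776 bp for RNAPII. Fold enrichment divided by tags per kb had a median 1.12 times higher in coincident-summit promoters for TAF3 and 1.12 times higher for RNAPII. This ratio is higher both where tags gather at the summit and where the local background is lower, and these cannot be told apart here. From the lowest to the highest decile of TAF3 enrichment the share of matched promoters with coincident summits went up from 25.7% to 54.0%, and for RNAPII enrichment from 22.4% to 52.1%. For H3K4me3 enrichment the lowest and highest deciles had 35.2% and 39.5%. By tags in the peak they had 36.0% and 41.7% for TAF3 and 34.7% and 35.1% for RNAPII. Ranked by TAF3 enrichment, 6 of the leading 10 matched promoters, 71 of the leading 100 and 284 of the leading 500 (56.8%) had coincident summits, against 37.0% of all.

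**Figure D5:**
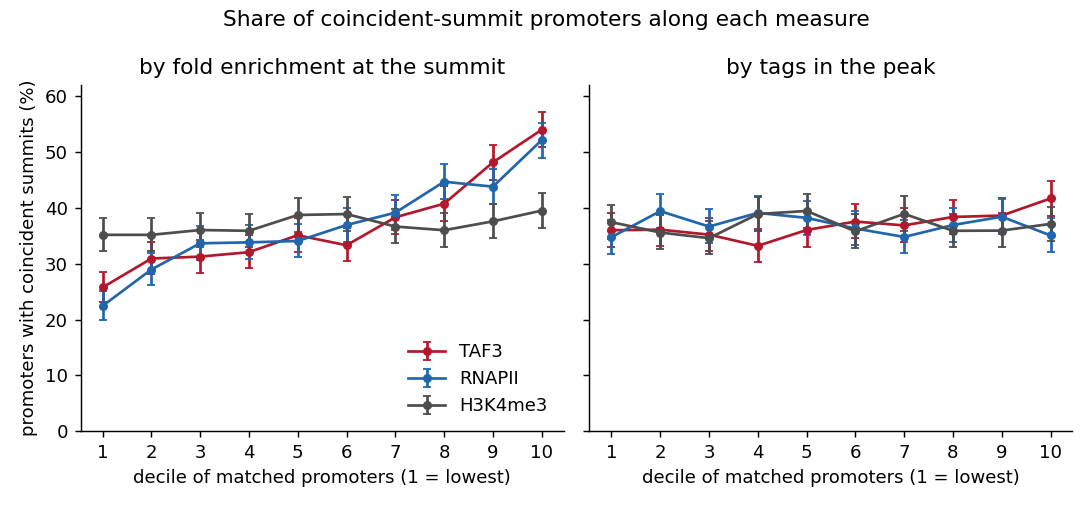
Percent of matched promoters with coincident summits (y axis) in each decile (x axis, 1 = lowest) of fold enrichment at the summit (left) and of tags in the peak (right), for TAF3 (red), RNAPII (blue) and H3K4me3 (grey), with 95% Wilson intervals for counting error. On the left TAF3 goes up from 25.7% to 54.0% and RNAPII from 22.4% to 52.1%, and on the right the highest deciles reach 41.7% for TAF3 and 35.1% for RNAPII.

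Coincident summits also occurred in broad polymerase domains. From the lowest to the highest decile of RNAPII peak width the share of matched promoters with coincident summits went from 45.4% to 36.2%. All members have summits 25 bp or less apart by the choice, so the distances in the examples only describe them. The widest RNAPII peak in the set, chr1:156607008-156632322, spanned 25315 bp with 4142 tags. Its summit lay 11 bp from the TAF3 summit at 156631183. At chr20:62315975-62337340 an RNAPII peak of 21366 bp held 6101 tags, and its summit lay 6 bp from a TAF3 summit of 25.1-fold enrichment. RNAPII peaks were wider than the H3K4me3 peak in 18.5% of coincident-summit promoters and 19.1% of the others. TAF3 peaks lay wholly inside the H3K4me3 peak in 88.3% of coincident-summit promoters and 88.3% of the others, with an interval of -1.39 to 1.26 points for the difference.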

How the data were processed

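One library each of TAF3, RNAPII, H3K4me3 and input was used, grouped by sample title. Per the submitters' processing notes, CASAVA 1.8.2, MACS 1.4.2 and build hg19 were used. How reads were aligned is not given in the sources used here. Each antibody was called, per the file headers, against the same input with at most 1 tag kept per position, and the fragment length by which tags are shifted was 120 bp for TAF3, 120 bp for RNAPII and 162 bp for H3K4me3. The deposited tag counts are raw counts per peak. Fold enrichment is deposited as a ratio to the local background, the p-value as a score of 10 times its negative log10, and the false discovery rate as a percent. The filtered lists held exactly the peaks above 5-fold with a rate below 5%.

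Overlaps of at least 1 bp, summit distances, medians and shares were computed with Python 3.11.15, numpy 2.4.6, pandas 2.3.3 and scipy 1.17.1, and figures with matplotlib 3.10.9. The summit is the start plus the deposited summit offset minus 1. The RNAPII values of a promoter are those of the peak with the nearest summit, which in 28 of the 6094 other promoters did not cover the TAF3 summit. In 20 of 20 simulated sets the selection gave the same peaks as a separate direct coding of the same rule. For 6 of 6 list pairs bedtools 2.31.1 gave the same overlap counts. The members, limits and measures were chosen with earlier results of these data known. Regions are named by a rule on rank (the strongest, weakest, widest, closest and farthest, and those at the limit), up to 10 for each. The reference tables at hand were on GRCh38, so start sites, gene names and sequences are not analysed here. Alternatives changed the limit, lists, overlap, H3K4me3 width, comparison set and measure of strength.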

Additional observations from a re-analysis of the deposited data

How the results depend on the processing

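The alternatives for the H3K4me3 gap and for the side of the RNAPII summit were added once the positions had been seen. Among 108 alternative values 73 lay inside the reported value's 95% interval, 33 moved beyond it and 2 reversed, and the causes were not tested. No replicate could be left out, with 1 library per antibody. The share of matched promoters with coincident summits was 18.0% with a limit of 10 bp, 54.99% with 50 bp and 42.2% with the upper 50% of each list. The share of coincident-summit promoters above the others' median H3K4me3 enrichment, 51.7%, turned to 47.1% with the upper 50% of each list and 43.1% within quintiles of TAF3 enrichment. For TAF3 enrichment it was 66.6% against promoters at 150 bp or more and 55.7% by tags per bp. For RNAPII enrichment it was 66.2% with a 50 bp limit, 68.5% against 150 bp or more, 56.4% within quintiles of TAF3 enrichment and 54.1% by tags per bp. For the distance from the TAF3 summit to the H3K4me3 summit it was 58.2%, and 59.8% with the upper 50% of each list. For RNAPII width, 45.9%, it was 48.3% with a 10 bp limit and 40.7% against 150 bp or more. For TAF3 width, 46.8%, it was 48.8% with a 10 bp limit, 38.8% against 150 bp or more and 42.3% within quintiles.

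An H3K4me3 summit within 50 bp of the TAF3 summit was found in 2.30% of promoters with coincident summits under a 50 bp limit, 0.386% with the upper 50% of each list and 1.78% with no limit on H3K4me3 width. In the others it was 8.55% with a 10 bp limit, 13.3% with 50 bp, 8.94% with the upper 50% and 13.2% at 150 bp or more. Around the RNAPII summit it was 0.331% with the upper 50% and 1.53% with no width limit in coincident-summit promoters, and 0.363%, 1.63% and, at 150 bp or more, 1.03% in the others. The RNAPII summit faced away from the H3K4me3 summit in 52.4% of coincident-summit promoters with a 10 bp limit, 63.1% with 50 bp and 61.1% with the upper 50%, and in 62.4% of the others with 50 bp, 71.2% with the upper 50% and 55.3% at 150 bp or more. Full RNAPII peaks, an overlap of 50% of the TAF3 peak and leaving out chromosomes X and Y moved none of these values beyond its interval.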

Other observations

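Coincident-summit promoters more often had a further RNAPII peak close by. Another filtered RNAPII peak lay within 1000 bp of 460 coincident-summit promoters (12.9%) and 666 of the others (10.9%), a difference of 1.95 points (95% interval 0.62 to 3.32), and the median gap to the next RNAPII peak was 16759 bp and 20106 bp. In promoters with summits 150 bp or more apart the share within 1000 bp was 11.5% (95% interval 10.3 to 12.8%). That interval overlaps the one of coincident-summit promoters, 11.8 to 14.0%. Gaps were taken from the outer edges of the TAF3 and RNAPII peaks, and the part of peak width in them was not tested. For another TAF3 peak within 5000 bp the shares were 7.56% and 8.60%, and the interval of the difference, -2.14 to 0.098 points, includes 0.

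By chromosome, coincident-summit promoters made up 30.6% of the 271 matched promoters on chromosome X (95% interval 25.4 to 36.4%), the lowest share, and 41.3% of the 80 on chromosome 21 (95% interval 31.1 to 52.2%), the highest. The chromosomes were singled out after their values were seen.

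Among coincident-summit promoters, those with the H3K4me3 summit over 500 bp away (549) had a median TAF3 width of 1935 bp and 44.96-fold TAF3 enrichment, and those with it 101 to 200 bp away (1087) had 1450 bp and 41.4-fold. The H3K4me3 summit lay outside the TAF3 peak in only 26 of 3572 coincident-summit promoters, and the TAF3 summit outside the H3K4me3 peak in 1. A far H3K4me3 summit therefore nearly always requires wide TAF3 and H3K4me3 peaks, and these width contrasts are largely fixed by geometry. The greater width was not particular to TAF3. RNAPII peaks had medians of 2156 bp and 1571 bp in these classes, and H3K4me3 peaks 2854 bp and 2314 bp.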
